A study of Drosophila melanogaster with 8 samples.

Results

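The nuclear genes for mitochondrial ribosomal proteins were followed along the larval midgut of Drosophila melanogaster. Members were all entries of the deposited expression table whose gene name began with mRpL (large subunit) or mRpS (small subunit), which gave 72 of the 14207 named entries, 46 of the large and 26 of the small subunit. All 72 exceeded a mean of 3 FPKM, as did 6084 named entries in all, and these 6084 are called all genes below. FPKM are fragments mapped to a gene, divided by its exon length and by a measure of the size of the library. Here that measure was an upper quartile and not the total of the library.

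The midguts came from feeding larvae of the last instar, labelled with the strain w1118. According to the methods of the study they were the progeny of a line that carries GAL4 under the Cyp4d2 promoter, crossed to flies with a nuclear GFP reporter under UAS control, and the GFP in some regions of the gut guided the dissection. Each subsection pooled tissue of many larvae and was sequenced as 1 unstranded library of short single-end reads. From front to hind these were M1, M2 and M3-4-5 (anterior midgut), then M6 and M7-8 (middle midgut), then M9, M10-11 and M12-13 (posterior midgut). No subsection had a second library, so no difference between subsections was tested, no value below has an error over larvae, and the methods state that the M6 library had fewer reads than the others and that M6 RNA tended more to degrade.

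Mitochondria carry their own ribosomes, which translate the few messages of the mitochondrial genome. These messages encode subunits of the respiratory chain and of the ATP synthase. The ribosomal RNAs come from mitochondrial DNA, but every protein of the mitochondrial ribosome is encoded in the nucleus, made in the cytoplasm and imported. Some of these proteins descend from bacterial ribosomal proteins and others are found only in mitochondria. Enterocytes of the midgut are rich in mitochondria and spend much energy on the secretion of enzymes and the transport of nutrients and ions.

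Markers of the tissue were as the labels state. The midgut gene mex1 had between 316 and 2816 FPKM over the 8 subsections. The homeotic gene lab, a marker of the copper cells, had 32.9 FPKM in M6 and at most 5.40 FPKM in the other 7 subsections. Summed markers of the fat body reached at most 6.41 FPKM, those of the salivary gland 0.381 FPKM, of the Malpighian tubule 0.645 FPKM and of hemocytes 0.963 FPKM. The visceral muscle that surrounds the gut was part of every sample, and the sum of its markers Mhc, Act57B and bt was 294, 413, 613, 239, 683, 412, 420 and 855 FPKM in the 8 subsections from front to hind. It was lowest in M6 and highest in M12-13, and its part in the results below was not tested.

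In the values as deposited the mRp genes formed 1 common profile along the gut, with a high anterior end and a minimum in M6. A second increase followed toward the hind end, which was the smaller of the 2 ends. Their median was 57.0, 51.2 and 36.7 FPKM in the anterior subsections M1, M2 and M3-4-5. It was 11.6 and 16.0 FPKM in M6 and M7-8, the middle of the gut, and 14.6, 17.8 and 25.1 FPKM in M9, M10-11 and M12-13 behind it. The median of all genes lay between 14.6 and 16.0 FPKM except in M6, where it was 9.87 FPKM. The highest value was in M1 for 62 of the 72 mRp genes, in M2 for 8 and in M12-13 for 2, whereas 21.4% of all genes were highest in M1. With each library rescaled to the same sum, 45 mRp genes were highest in M12-13 and 24 in M1. M2, M3-4-5 and M6 were then highest in 1 member each. Of all genes 54.1% were then highest in M12-13 and 6.30% in M1. Which end was higher in the mRp genes thus depended on the scaling. The lowest value was in M6 for 52 mRp genes, in M9 for 14 and in M7-8 for 6, and 43.2% of all genes were lowest in M6 (49.2% of the genes of like length and level defined below). In these bulk samples fewer cells that express a gene and less of its RNA per cell cannot be told apart. The ratio of the highest to the lowest subsection had a median of 5.00 over the mRp genes and 3.68 over all genes.

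**Figure D1:**
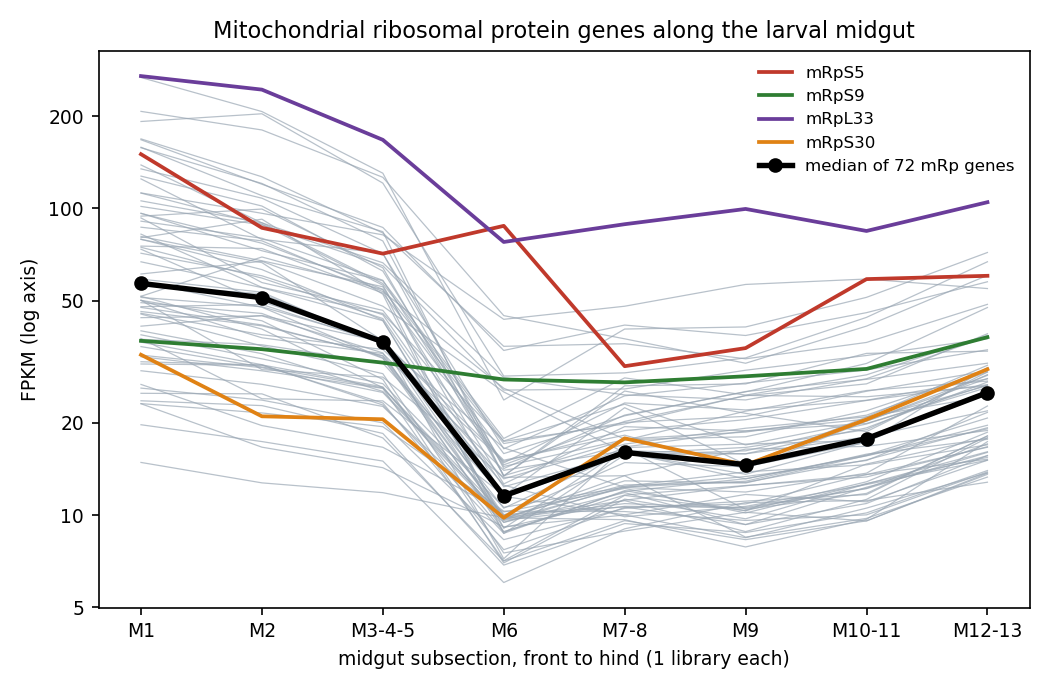
FPKM of the 72 mRp genes (log axis) in the 8 subsections from front to hind, 1 library each; thin lines are single genes, the black line with points is their median, and mRpS5, mRpS9, mRpL33 and mRpS30 are colored. The median goes through 57.0 FPKM in M1, 11.6 FPKM in M6 and 25.1 FPKM in M12-13, and mRpS5 stands out in M6 with 87.8 FPKM.

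The 5 members with the highest means over the 8 subsections were mRpL33, mRpL27, mRpS21, mRpL34 and mRpS7, all homologs of bacterial ribosomal proteins. mRpL33 (X, 4215797 to 4216264) had 270, 244, 167, 77.8, 88.9, 99.7, 84.5 and 105 FPKM, and here as below 8 values given together run from M1 to M12-13 in the order of the gut. Its 3 anterior values were thus all above the other 5, and M6 was the lowest. mRpL27 (2L, 4458595 to 4459602), whose bacterial homolog lies near the center where peptide bonds form, had 267, 207, 130, 23.7, 40.4, 41.1, 51.3 and 71.9 FPKM. mRpS21 (3R, 9198352 to 9207531) had 207, 180, 126, 44.7, 37.6, 31.3, 41.3 and 60.5 FPKM, with its minimum in M9. In a later annotation 48.0% of its exon bases lie under an exon of CG8870. That gene was given at most 0.297 FPKM, though unstranded reads of overlapping genes cannot be told apart. mRpL34 (2R, 11986453 to 11990113) had 192, 204, 121, 28.4, 29.1, 32.6, 44.2 and 67.0 FPKM, and was highest in M2. mRpS7 (2L, 10386662 to 10387652), homolog of a protein of the head of the bacterial small subunit, had 168, 120, 86.7, 34.4, 41.7, 38.5, 45.7 and 57.7 FPKM. In all 5 genes the lowest anterior value was above the highest posterior value.

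At the other end, the 5 lowest means belonged to mRpL37, mRpL38, mRpL44, mRpS29 and mRpL11. Of these only mRpL11 has a bacterial homolog, a protein at the site where translation factors act. mRpL37 (3R, 6608285 to 6609814) had 14.9, 12.7, 11.8, 9.80, 9.66, 7.87, 9.69 and 17.4 FPKM, and was 1 of the 2 members that were highest in M12-13. mRpL38 (X, 14120322 to 14121982) had 19.7, 17.4, 15, 6.03, 9.02, 11.0, 11.2 and 12.8 FPKM. mRpL44 (3R, 1293500 to 1296358), whose protein has the fold of an RNase III, had 23.1, 16.7, 14.3, 9.16, 10.01, 8.44, 10.5 and 13.7 FPKM. mRpS29 (2R, 18303314 to 18307881), a protein with a GTP-binding domain known in mammals as DAP3, had 23.6, 22.8, 18.5, 6.87, 9.39, 8.78, 10.2 and 14 FPKM. mRpL11 (3R, 10337560 to 10339359) had 25, 24.9, 17.9, 7.08, 9.59, 8.32, 9.58 and 13.6 FPKM. The last 4 of these kept the order of the common profile, with all 3 anterior values above all 3 posterior values and the minimum in M6 or M9.

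Median levels were closer between the subunits than between classes of origin. The median of the mean FPKM was 28.2 FPKM in the 46 large-subunit genes and 31.0 FPKM in the 26 small-subunit genes. It was 37.0 FPKM in the 42 homologs of bacterial proteins and 24 FPKM in the 27 genes whose proteins are found only in mitochondria, and 20.9 FPKM in the 3 genes not placed in either class (mRpS18A, mRpS18B and mRpS30). Whole ranges overlapped, from 14.5 to 142 FPKM in the bacterial homologs and from 11.7 to 71.0 FPKM in the mitochondrion-specific genes. mRpL12, the stalk protein that in bacteria is present in several copies per ribosome, had 96.5, 72.8, 58.1, 17.8, 28.0, 24.6, 28.7 and 38.6 FPKM, within the range of the other members.

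In the anterior against the posterior midgut, all 72 mRp genes were higher on average. The median difference between the mean log2(FPKM + 1) of M1, M2 and M3-4-5 and that of M9, M10-11 and M12-13 was 1.42, a fold of 2.67 on that scale, and single members lay between 0.10 (mRpS9) and 2.07 (mRpS10). All genes had a median of 0.21, so most of them were higher in the anterior too, and their share was not counted. At least 2-fold higher in the anterior were 56 of 72 mRp genes, with 24% of all genes past that limit, and at least 2-fold lower were 0 mRp genes, with 19.6% of all genes. All 3 anterior values exceeded all 3 posterior values in 68 mRp genes and in 42.1% of all genes. The exceptions were mRpS9, mRpL3, mRpS30 and mRpL37, and each overlapped through M12-13, since all 72 members were free of overlap when M12-13 was left out. With fewer libraries non-overlap is easier to reach in any gene, and the share of all genes without M12-13 was not counted.

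A difference of similar size was found in genes chosen only for a like transcript length and level. mRp transcripts are short, with a median length of 740 nt against 1704 nt in all genes, and other short genes were mostly higher in the anterior midgut as well. For each member the other genes with a transcript at most 25% longer or 20% shorter and a mean FPKM within 2-fold were therefore taken, and they are called genes of like length and level (between 12 for mRpL34 and 577 for mRpS30). The median difference of the members was 1.42 and that of their genes of like length and level was 1.22. Member by member, the difference left after subtraction had a median of 0.20 on the log2 scale, and 52 members lay above and 20 below their like genes. A 2-fold higher value in the anterior was found in 62.4% of the like genes (median over members), and non-overlap in 86.6%, where the members had 77.8% and 94.4%. The remaining 0.20 depended on single libraries, since it was 0.11 without M1, 0.08 without M9 and 0.32 without M12-13. By transcript length, the difference itself was 1.72 in the 16 members up to 600 nt, 1.35 in the 30 members of over 600 to 900 nt and 0.94 in the 26 longer members, while the part relative to like genes was 0.26, 0.16 and 0.24.

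**Figure D2:**
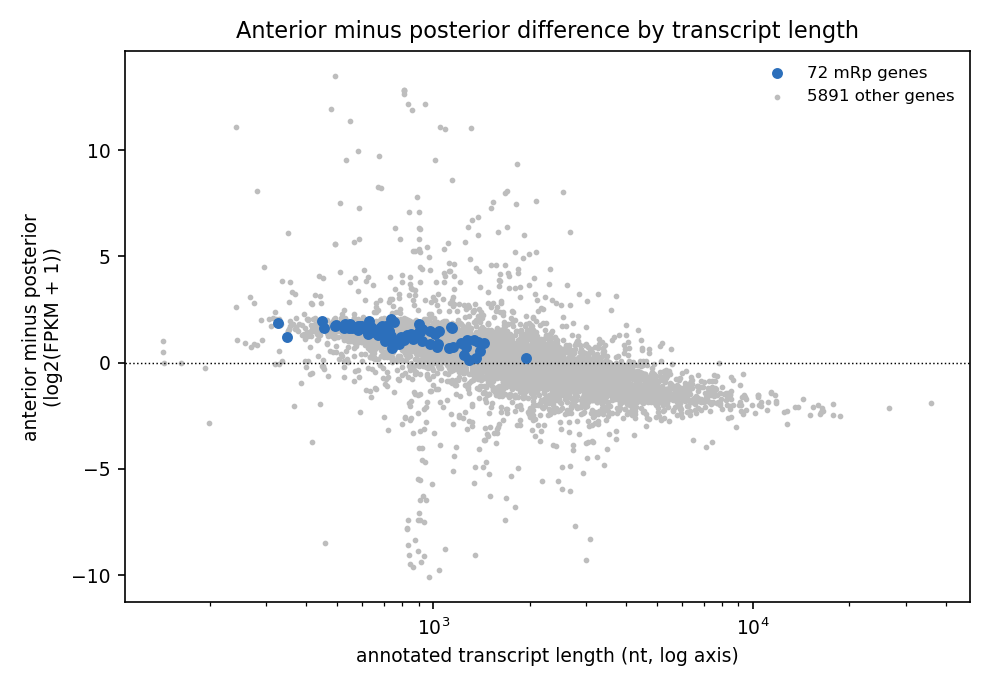
Anterior minus posterior difference of log2(FPKM + 1) against annotated transcript length (nt, log axis) for the 72 mRp genes in blue and 5891 other genes with a mean above 3 FPKM in gray, 1 point per gene. The mRp genes lie among the short genes, all above 0 with a median of 1.42, and most of the other genes of their length lie above 0 as well.

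This comparison also depended on how the libraries were scaled. The deposited values followed an upper-quartile normalization, which does not set the sums of the libraries equal. The FPKM values of the 3 anterior libraries summed to between 1357940 and 1806160, and those of the 3 posterior libraries to between 542365 and 882431. When each library was rescaled to the same sum, the median difference of the mRp genes was 0.25 and that of all genes was -0.88 in place of 0.21. Relative to all genes it was 1.21 as deposited and 1.14 after rescaling, and relative to genes of like length and level 0.20 and 0.19. Rescaling multiplies a whole library by 1 factor, which nearly cancels in both of these comparisons. Their agreement was thus largely fixed in advance. As shares, mRp genes made up 0.343%, 0.256% and 0.248% of the summed FPKM in M1, M2 and M3-4-5 and 0.154%, 0.231% and 0.373% in M9, M10-11 and M12-13. After that rescaling 0 mRp genes were at least 2-fold higher and 1 was 2-fold lower in the anterior, with 4.08% and 46.4% of all genes. In 0 of 72 did all 3 anterior values then exceed all 3 posterior values. The share of all genes was not counted for this.

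Members differed in how far they went beyond their like genes. The 5 highest were mRpS10, mRpL39, mRpS35, mRpL10 and mRpL35. mRpS10 (3R, 11055387 to 11056238), homolog of a protein in the head of the bacterial small subunit, had 51.7, 69.5, 54.3, 9.06, 16.5, 10.4, 11.8 and 18.1 FPKM, and its difference of 2.07 compared with 1.22 in its like genes. It was the only member in which M1 was below the average of M2 and M3-4-5. mRpL39 (3L, 14991081 to 14992766), found only in mitochondria, had 50.2, 29.8, 28.2, 13.3, 13.4, 8.48, 9.76 and 13.3 FPKM, a difference of 1.66 against 0.84 in like genes. mRpS35 (3L, 2780899 to 2782105), also mitochondrion-specific, had 45.3, 35.6, 28.9, 7.53, 8.87, 10.2, 9.57 and 13.7 FPKM, with 1.62 against 0.85. mRpL10 (2L, 203779 to 210725), homolog of the protein that anchors the stalk, had 158, 110, 84.0, 13.4, 26.4, 26.8, 33.7 and 34.3 FPKM, with 1.82 against 1.15. mRpL35 (3R, 17849249 to 17851228) had 125, 79.3, 71.5, 13.4, 25.4, 21.5, 18.7 and 29.3 FPKM, with 1.92 against 1.27.

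The 5 lowest relative to their like genes were mRpS9, mRpL18, mRpL3, mRpL33 and mRpL37. mRpS9 (3R, 3712767 to 3728389), whose bacterial homolog reaches the site of the peptidyl-tRNA, was nearly flat, with 37.0, 34.8, 31.4, 27.7, 27.1, 28.4, 30.0 and 38.0 FPKM. Its highest and lowest subsections differed by a ratio of 1.40, the smallest of the 72 before those of mRpL37 (2.21) and mRpL19 (2.40), and its anterior minus posterior difference was 0.10 against 0.68 in like genes. In a later annotation 25.1% of its exon bases lie under an exon of ArgRS-m, the mitochondrial arginyl-tRNA synthetase (deposited as CG10092, with between 2.69 and 6.59 FPKM), and without strand the reads of overlapping genes cannot be told apart. mRpL18 (2R, 8643939 to 8645034) had 26.7, 19.6, 16.6, 10.2, 12.2, 10.2, 12.7 and 15.4 FPKM, a difference of 0.67 against 1.12. It shares its deposited locus with ox, a subunit of respiratory complex III that had between 344 and 1887 FPKM. mRpL3 (X, 15655281 to 15656696), homolog of a protein near the peptidyl transferase center, had 37.7, 24, 23.6, 11.6, 22.4, 14.6, 20.9 and 30.8 FPKM, with 0.37 against 0.75. For mRpL33, described above, the difference of 1.21 compared with 1.56 in only 17 like genes, and for mRpL37 0.23 compared with 0.57. mRpL19 (3R, 4499831 to 4500918), homolog of a protein at the interface of the bacterial subunits, had 23.1, 21.5, 19.4, 10.3, 10.3, 9.61, 10.02 and 13.8 FPKM, and its difference of 0.89 compared with 0.87 in like genes. Both ends of the order held bacterial homologs and mitochondrion-specific genes.

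The 2 subunits had overlapping ranges. The anterior minus posterior difference had a median of 1.38 in the large-subunit genes and 1.43 in the small-subunit genes, and 0.14 and 0.25 relative to like genes. Above their like genes were 29 of 46 large-subunit and 23 of 26 small-subunit members. Bacterial homologs and mitochondrion-specific genes had medians of 1.45 and 1.41, and 0.22 and 0.21 relative to like genes. The members lie on 5 chromosome arms, 12 on 2L, 11 on 2R, 17 on 3L, 21 on 3R and 11 on the X.

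M6, the region of the acid-secreting copper cells, had the lowest median mRp level of the gut in the values as deposited. The part of the lower depth and of RNA degradation in the M6 values was not tested. In M6 71 of 72 members were below the mean of the other 7 subsections, with a median of -1.05 on the log2(FPKM + 1) scale against -0.50 for all genes. Most of all genes were thus below that mean as well, and their share was not counted. At least 2-fold lower in M6 were 39 mRp genes, with 26.9% of all genes past that limit, and at least 2-fold higher were 0 mRp genes, with 6.15% of all genes. Genes of like length and level had a median of -0.69 in M6, and a 2-fold lower value in 31.3% of them. Relative to these like genes the mRp median was -0.35, with 60 members below and 12 above. Leaving out each of the other 7 subsections gave relative values between -0.39 and -0.31.

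The M6 values depended on the scaling as well. After scaling of each library by its median ratio to the geometric means of genes over the 8 libraries, the median M6 deviation was -0.66 in the mRp genes and -0.12 in all genes, so that their distance from all genes was -0.55 as deposited and -0.54 after scaling. Only 16 of the 72 members were then lowest in M6 (24.4% of all genes), with 35 lowest in M7-8 (11.6%) and 19 in M9 (9.35%). The minimum in M6 was thus no longer more frequent in the members than in all genes. At least 2-fold lower in M6 were then 14 members, with 17.3% of all genes. Rescaling to the same sum gave -0.63 for the mRp genes and -0.11 for all genes, with 38 members lowest in M6 (23.1% of all genes). Relative to like genes the value was -0.35 under all 3 scalings. The factor of a library nearly cancels in this value and in the distance from all genes, so neither could change much.

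The lowest M6 values relative to the rest were those of mRpL10, mRpL27, mRpL36, mRpL48 and mRpS33. mRpL10, with 13.4 FPKM in M6 and between 26.4 and 158 FPKM elsewhere, had a deviation of -1.92, and mRpL27, with 23.7 FPKM in M6 and between 40.4 and 267 FPKM elsewhere, one of -1.87. mRpL36 (3L, 8117684 to 8118232), a small protein with a bacterial homolog, had 80.3, 92.3, 52.5, 8.71, 15.7, 16.2, 19.8 and 26.6 FPKM, a deviation of -1.86. mRpL48 (2L, 1710462 to 1715851), which is mitochondrion-specific, had 51.3, 47.8, 36.7, 7.21, 16.7, 18.8, 19.9 and 26.1 FPKM, a deviation of -1.84. mRpS33 (3R, 12260621 to 12262319), also mitochondrion-specific, had 158, 121, 78.4, 14.2, 21.2, 25.2, 31.2 and 47.5 FPKM, likewise a deviation of -1.84. In all 5 the M6 value was the lowest of the 8, and their like genes deviated by only -0.60 to -0.93. mRpL10, mRpL27 and mRpS33 also had the largest ratios of highest to lowest subsection, 11.8, 11.3 and 11.1.

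At the other end stood mRpS5, mRpS9, mRpS16, mRpL37 and mRpL39. mRpS5 (3L, 24530335 to 24536634), homolog of a protein at the entry of the messenger RNA channel, had 150, 86.5, 71.3, 87.8, 30.6, 35.1, 58.8 and 60.3 FPKM. It was the only member above its own mean of the other subsections in M6, with a deviation of 0.49 where its like genes had -0.88. Its M6 value exceeded those of 6 of the other 7 subsections and had the widest gap to the like genes of all members, although the upper bound of the 95% interval that came with it was 390 FPKM. mRpS16 (2R, 10057967 to 10061133), the homolog of a small protein of the bacterial small subunit, had 61.2, 67.3, 48.0, 25.2, 16.0, 13.6, 17.4 and 25.4 FPKM, and its deviation in M6 was -0.22 against -0.65. It shares its deposited locus with CG8331, which had between 121 and 413 FPKM, and the upper bound of its M6 value was 434 FPKM. The deviations were -0.21 in mRpS9, -0.23 in mRpL37 and -0.43 in mRpL39, against -0.69, -0.56 and -0.64 in their like genes.

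**Figure D3:**
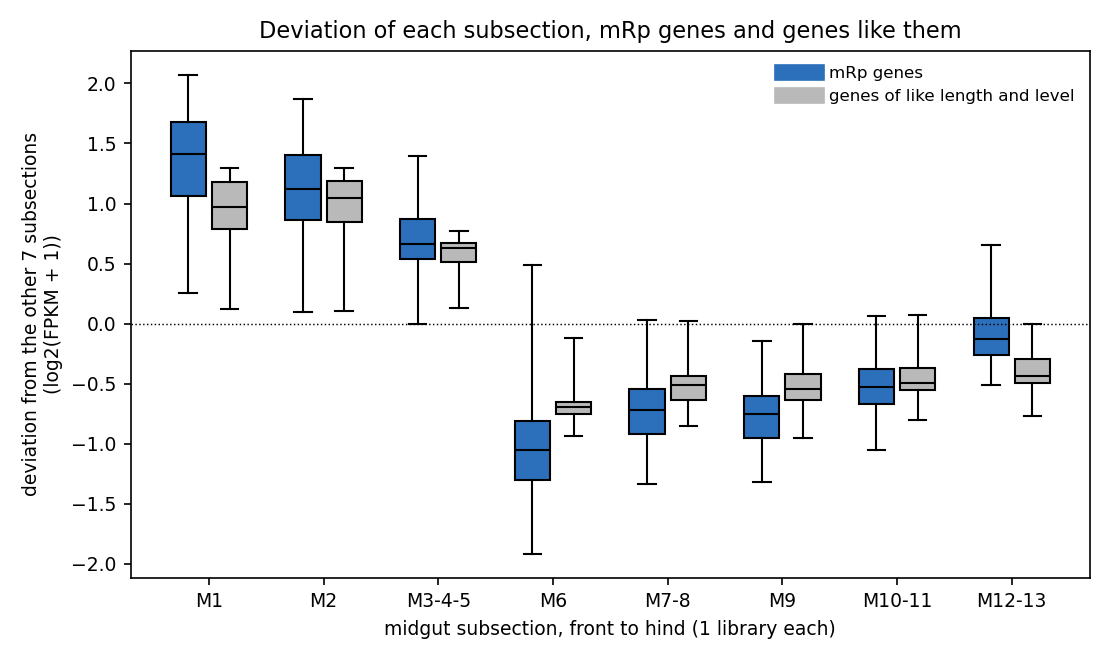
Deviation of each subsection from the mean of the other 7, on log2(FPKM + 1), for the 72 mRp genes (blue) and the medians of their genes of like length and level (gray). Boxes are quartiles with the median as a line and whiskers run to the lowest and highest gene; member by member, the mRp genes exceed their like genes by a median of 0.42 in M1 and 0.28 in M12-13, and in M6 the median difference is -0.35.

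Subtracting the like genes left a profile with both ends of the gut high and its middle low. The median deviation of the members relative to their like genes was 0.42, 0.11 and 0.05 in the anterior (M1, M2 and M3-4-5), -0.35 and -0.24 in the middle (M6 and M7-8), and -0.23, -0.05 and 0.28 in the posterior midgut (M9, M10-11 and M12-13). Members above their like genes numbered 66, 49, 48, 12, 9, 9, 26 and 68 from M1 to M12-13. The anterior and the posterior thus each held a gradient, and comparisons within each were made after the values had been seen.

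Within the anterior midgut M1 was above the mean of M2 and M3-4-5 in 71 of 72 members, by a median of 0.42 on the log2(FPKM + 1) scale, where all genes had 0.06 and genes of like length and level 0.11. The share of all genes with M1 above that mean was not counted. In 64 members the order was M1 above M2 above M3-4-5, an order found in 23.3% of all genes and 34.9% of like genes. Relative to like genes the median was 0.29, and 69 members were above 0. The exceptions were mRpS10, mRpS16 and mRpL22. Highest of the 72 was mRpS5, with 150 FPKM in M1 and 86.5 and 71.3 FPKM in M2 and M3-4-5. Rescaling left 0.36 to 0.44 for the difference and 0.29 relative to like genes, a value in which library factors nearly cancel.

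Within the posterior midgut M12-13 was the highest subsection in 71 of 72 members, with 41.6% of all genes and 49.2% of like genes doing the same. The exception was mRpL28, with 54.8 FPKM in M12-13 against 56.5 and 58.9 FPKM in M9 and M10-11. M12-13 was above M10-11 and M10-11 above M9 in 66 members, against 30.2% of all genes and 34.3% of like genes. The median difference of M12-13 from the mean of M9 and M10-11 was 0.50, where all genes had 0.00 and like genes 0.07, and 0.41 relative to like genes, with 71 of 72 above 0. The largest was that of mRpL37, with 17.4 FPKM in M12-13 and 7.87 and 9.69 FPKM in M9 and M10-11. With each library rescaled to the same sum the difference was 1.0 for the mRp genes and 0.47 for all genes. Relative to like genes it was 0.42, a value in which library factors nearly cancel. The summed muscle markers were also highest in M12-13, with 855 FPKM against 412 and 420 FPKM in M9 and M10-11, and their part in this difference was not tested.

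In the values as deposited mRpS9 and mRpL37 had their maximum in M12-13, and in mRpL3 (30.8 FPKM in M12-13) and mRpS30 (X, 15680080 to 15682072, with 29.9 FPKM in M12-13) it was second to M1 alone. mRpS30, named for the small subunit although its mammalian homolog sits in the large one, had 33.3, 21, 20.5, 9.80, 17.8, 14.6, 20.5 and 29.9 FPKM.

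Intervals that came with the values were wide. For a typical member the upper bound of the 95% interval, made by Cuffdiff without replicates, was between 2.36 and 2.55 times the value, depending on the subsection. The upper bound in M6 lay below the M1 value in 60 of 72 members, that in M9 in 55 and that in M12-13 in 41. For M2 and M3-4-5 the upper bound did so in 0 members, so the order of the anterior subsections in a single gene lay within these bounds. The M1 value has an interval too, with an upper bound of at least 2.20 times the value. As lower bounds were not used, these counts do not show whether any 2 intervals were apart. The same counts over all genes were not made.

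Other genes of mitochondrial gene expression were also low in M6. A list of 13 genes covered mitochondrial transcription and the upkeep of mitochondrial DNA, and 10 of them exceeded a mean of 3 FPKM. In the values as deposited the 13 had a median deviation in M6 of -1.08 (-0.50 in all genes). In M6 9 of them were lowest (43.2% of all genes). Relative to like genes the M6 median was -0.60, with 2 above and 10 below. Their anterior minus posterior difference was 0.43, with 2 of 13 genes at least 2-fold higher in the anterior (24% of all genes) and 0 lower, and they are long, with a median of 1965 nt, where like genes had 0.19. After rescaling to the same sum the difference turned to -0.60 in this list and to -0.53 in the next, with all genes at -0.88. TFAM, which packages mitochondrial DNA, had 59.0, 50.3, 39.0, 10.1, 15.4, 13.2, 13.7 and 17 FPKM, close in shape to the mRp median. The highest relative to like genes was CG14786, with 18.7, 12.9, 9.89, 2.94, 6.87, 7.20, 7.28 and 9.27 FPKM. At the low end were mTerf3, of a family of mitochondrial transcription terminators, with 18.4, 16.5, 13.6, 5.84, 29.8, 24.4, 21.1 and 18.6 FPKM and thus highest in M7-8, and the transcription factor mtTFB2, which stayed between 2.77 and 4.92 FPKM. A list of 14 genes for mitochondrial translation, 12 of them above a mean of 3 FPKM, also held 4 ribosomal proteins with other names. In the values as deposited 12 of the 14 were lowest in M6 (43.2% of all genes) and 11 highest in M1 (21.4%). The 14 genes had a median M6 deviation of -0.82, and -0.43 relative to like genes, with 3 above and 11 below. Their anterior minus posterior difference had a median of 0.50, with 4 of 14 genes 2-fold higher and 0 lower, a share near the 24% of all genes. EfTuM, the elongation factor that brings aminoacyl-tRNA to the mitochondrial ribosome, had 158, 104, 87.5, 21.8, 38.9, 41.6, 48.7 and 52.2 FPKM, the highest of the list relative to like genes (1.0). The lowest of this list were bonsai and CG13163, the second with 10.9, 8.06, 6.62, 4.39, 6.41, 5.76, 6.44 and 8.23 FPKM.

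The 4 ribosomal proteins with other names kept the same low point. tko, the homolog of bacterial S12 known for its bang-sensitive mutants, had 93.7, 94.6, 60.1, 17.1, 20.3, 23.3, 26.9 and 29.3 FPKM. bonsai, the homolog of S15, had 34.7, 25.2, 19.7, 13.6, 16.2, 14.9, 19.4 and 26.5 FPKM. CG4882 had 16.8 FPKM in M1 and 6.47 FPKM in M6, and CG6094 had 41.5 and 4.50 FPKM. In the values as deposited all 4 were lowest in M6 (43.2% of all genes), and 3 were highest in M1 (21.4%) and tko in M2.

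The nuclear subunits of the respiratory chain and ATP synthase, the complexes that the products of the mitochondrial ribosome join, were also high in M1 and low in M6. Their 63 genes, of which 62 exceeded a mean of 3 FPKM, had a median level of 385 FPKM, where the mRp genes had 28.9 FPKM. In the values as deposited 58 of the 63 were highest in M1 (21.4% of all genes). The anterior minus posterior difference was 1.33 against 1.42 in the mRp genes, with 48 of 63 genes at least 2-fold higher in the anterior (24% of all genes) and 0 lower, and 0.08 relative to like genes. In M6 the median deviation was -0.89 (-0.50 in all genes), with 36 genes lowest there (43.2% of all genes). Relative to like genes it was -0.17, with 24 genes above and 37 below. By complex this relative value was 0.01 in complex I (17 above, 14 below) and -0.10 in the ATP synthase (6 above, 7 below). It was -0.24 in complex III (1 above, 7 below) and -0.54 in complex IV (1 above, 8 below). For a single complex the like genes could hold genes of the other complexes. M1 exceeded the mean of M2 and M3-4-5 by 0.50, which compares with 0.42 in the mRp genes, and M12-13 exceeded that of M9 and M10-11 by 0.28, where the mRp genes had 0.50. At the ends of the list relative to like genes were CG4169, a core protein of complex III, with 871, 702, 502, 115, 182, 240.3, 244 and 223 FPKM, CG3621, a complex I subunit, with 916, 751, 408, 152, 111, 95.6, 139.8 and 151 FPKM, and on the low side the ATP synthase genes CG1746, with 2676 FPKM in M1 and 1138 FPKM in M6, and blw, the alpha subunit, with 504, 379, 386, 395, 544, 609, 714 and 775 FPKM, which was highest in M12-13.

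Cytoplasmic ribosomal proteins, which translate all other messages, were also higher in the anterior midgut but went the other way in M6. The 88 genes, of which 82 exceeded a mean of 3 FPKM, had an anterior minus posterior median of 1.61, with 69 of 88 genes at least 2-fold higher in the anterior (24% of all genes) and 0 lower, and 0.07 relative to like genes. After rescaling to the same sum the median was 0.41, and 0.13 in the respiratory list. In M6 their median deviation was 0.25 where the mRp genes had -1.05. As deposited 0 of 88 were lowest there, against 52 of 72 mRp genes and 43.2% of all genes. Relative to genes of like length and level it was 1.21 against -0.35 in the mRp genes, and all 79 genes with at least 10 like genes were above 0. These like genes could hold genes of the respiratory list, and those of the respiratory list could hold cytoplasmic ribosomal proteins. Such relative values may therefore in part set 1 list against another, and the size of that part was not measured. M1 was highest in at most 4 of 88 (21.4% of all genes), a count that also takes in any gene with 0 FPKM throughout. M1 minus the mean of M2 and M3-4-5 was -0.12, in contrast to 0.42 in the mRp genes. The signs of the M1 and M6 medians were the same under the 3 scalings, with 0.71 and 0.67 in M6 for the cytoplasmic genes and -0.63 and -0.66 for the mRp genes after rescaling to the same sum and by the median ratio. RpL8 had 1361, 1951, 1382, 648, 398, 469, 400 and 401 FPKM and RpLP0 had 1095, 1318, 991, 518, 339, 369, 359 and 368 FPKM, and these were the highest relative to like genes in the anterior. RpL22, with 139, 138, 143, 363, 244, 278, 228 and 255 FPKM, and RpL6, with 383, 520, 525, 677, 418, 437, 381 and 405 FPKM, were the lowest and had their maximum in M6.

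**Figure D4:**
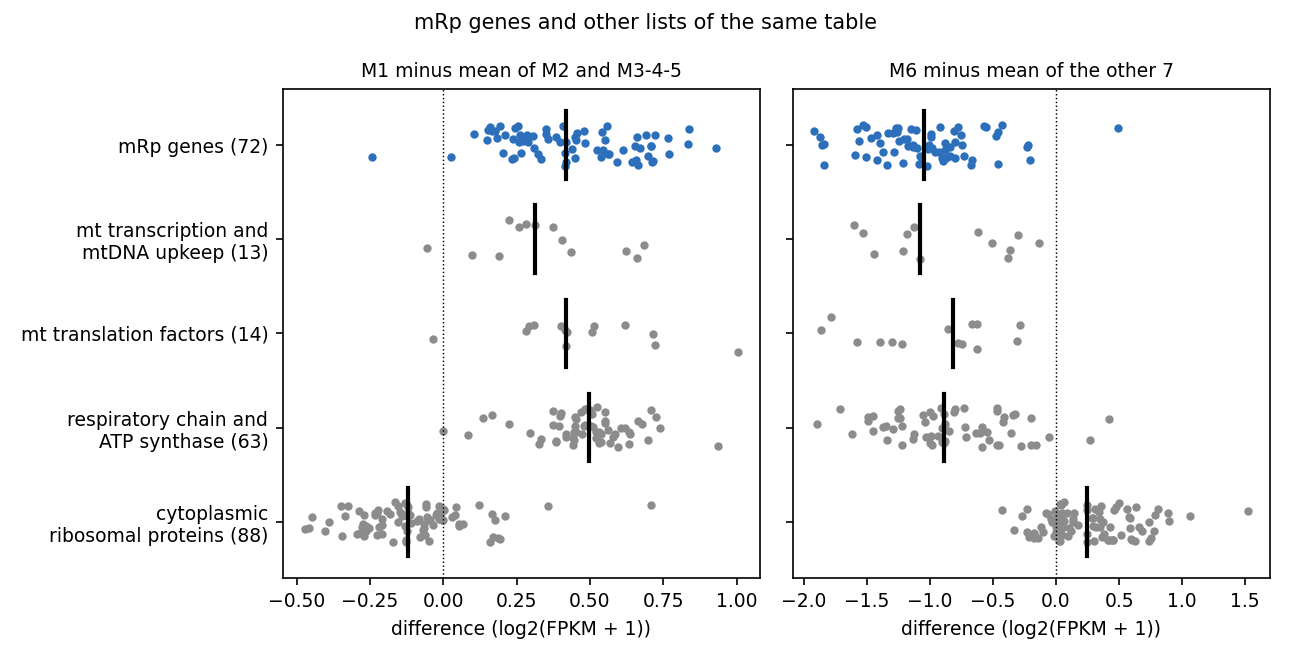
Difference of M1 from the mean of M2 and M3-4-5 (left) and of M6 from the mean of the other 7 subsections (right), on log2(FPKM + 1), for the 72 mRp genes (blue) and 4 lists of other genes (gray; numbers of genes in parentheses); points are genes, spread vertically for legibility, and bars are medians. The mRp median lies at 0.42 on the left and -1.05 on the right, and that of the cytoplasmic ribosomal proteins at -0.12 and 0.25.

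Of the 72 members, 41 share their deposited locus with another named entry, and 9 have over 10% of their exon bases under an exon of another gene in a later annotation: mRpS21, mRpL35, mRpS14, mRpS24, mRpL17, mRpL13, mRpS9, mRpL48 and mRpS18C. The 31 members with a locus of their own had an anterior minus posterior median of 1.41 and an M6 deviation of -0.99, and 0.19 and -0.30 relative to like genes. Quantification status was OK in all 8 subsections for all 72.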

How the data were processed

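The authors removed reads of low quality (below 3) with PRINSEQ, mapped the rest to FlyBase release 5 with Bowtie and TopHat 2.0.6, and made the FPKM values with Cuffdiff 2.0.2 (upper-quartile normalization, corrections for reads of several places and for fragment bias, blind dispersion). These deposited FPKM values were used unchanged, with the upper bounds of their intervals; the lower bounds and the authors' comparisons were not used. No counts were used here, so the reads behind a value are unknown. Loci are those of the deposited table on release 5.

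A pseudocount of 1 was added before log2. Levels are per kilobase. Transcript length was the median over the transcripts of a gene in Ensembl annotation BDGP6.54, joined by identifier (2 members by symbol); 13806 entries had one. No test was made for lack of replicates. Calls were differences of at least 2-fold among genes with a mean above 3 FPKM. Python 3.11.15, numpy 2.4.6, pandas 2.3.3 and statsmodels 0.14.6 were used, and the subtraction of like genes was tested on simulated data.

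Members with all 8 values were the 5 at each end by mean, by difference relative to like genes and by M6 deviation, and the 3 at each end by ratio of subsections; of other lists, 2 genes at each end. TFAM is the second highest of its list. Genes outside this rule (mRpS30, mRpL28, mRpL12, mRpL22, CG4882, CG6094) were named after their values were seen. Members and lists were chosen with earlier results of these data known, and list genes were written from general knowledge. The like genes of a list left out that list and the mRp genes but could hold genes of the other lists. Alternatives were a pseudocount of 0.1, other limits and scalings, other windows for like genes, a lowess curve on length with a share of 0.3, members with shared loci left out, and each subsection left out.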

Additional observations from a re-analysis of the deposited data

How the results depend on the processing

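Over 122 alternative values, 110 stayed within 1.5-fold, 12 moved further and 0 changed sign. Some of these values could not move. All 72 members had status OK and means of at least 11.7 FPKM, so a filter on status or at 10 FPKM took out other genes only. Values relative to like genes could change little under rescaling, as library factors nearly cancel in them. With each library rescaled to a sum of 1000000, the median anterior minus posterior difference was 0.25, the M6 deviation -0.63 and the M12-13 difference 1.0. At least 2-fold higher in the anterior were then 0 members (4.08% of all genes). Highest in M1 were 24 members (6.30% of all genes) and highest in M12-13 were 45 (54.1%). In 0 members did all anterior values exceed all posterior values, and the share of all genes was not counted for this. Scaling by the median ratio gave an M6 deviation of -0.66 and 16 members lowest in M6 (24.4% of all genes). With like genes chosen by level only, the relative anterior minus posterior difference was 1.16, since length was then not subtracted. Leaving out each anterior or posterior library gave this relative difference between 0.075 (without M9) and 0.32 (without M12-13), with 0.11 without M1. The cause of these shifts was not tested. Members without shared loci, members without exon overlap, narrower windows, a lowess curve, the longest transcript as length, a pseudocount of 0.1 and a limit of 10 FPKM moved no value beyond its limit. No paired analysis was possible because each subsection had 1 library. Precision is limited by the lack of replicates and by the shallower M6 library, whose RNA tended more to degrade.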

Other observations

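The profiles of mRpL3 and mRpS30 were nearly the same in shape and level although their transcripts differ in length (1243 and 1953.5 nt). The ratio of mRpL3 to mRpS30 stayed between 1.0 and 1.26 over the 8 subsections. Both genes lie on the X, with 23383 bases and 7 named entries between their loci. This pair was noticed after the values were seen, and no test was made.

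The entries that share the locus of mRpL10 were CG11617, with at most 0.47 FPKM, and Tbc1d15-17, with 4.70, 4.22, 4.82, 8.49, 8.67, 9.74, 9.82 and 9.41 FPKM from front to hind. The last ran opposite to mRpL10, and was lowest in the anterior.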
